A study of Homo sapiens with 14 samples.

Results

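The BCL2 family of apoptosis regulators was followed as a list of 10 genes, chosen by symbol, across every group of the series. Of the 10, 9 were rows among the 13734 genes of the deposited table: BCL2, BCL2L1 and MCL1, which protect cells, BAX and BAK1, which kill them, and BCL2L11, BBC3, PMAIP1 and BID, which trigger the killers. BIK was not analysed here. All 9 passed the filter on low values.

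The cells were MDA-MB-231, a human breast cancer line of the triple-negative type, and total RNA was sequenced in 14 libraries of 7 groups with 2 libraries each. The groups were siRNA mix 1 and siRNA mix 2 against YAP and TAZ (48 h), siRNA mix A and siRNA mix B against the BRD genes (72 h), control siRNA, JQ1 (1 µM for 24 h) and DMSO. YAP (gene YAP1) and TAZ (gene WWTR1) are co-activators of transcription that the Hippo pathway restrains, BRD2 and BRD3 belong to the BET readers of acetylated histones, and JQ1 displaces BET proteins from acetylated lysines. The series sets these treatments side by side to ask how far transcription that depends on YAP and TAZ also needs BET proteins. Both knockdowns share the same 2 control siRNA libraries. The labels give a harvest time for neither control siRNA nor DMSO, so duration cannot be told apart from the knockdown or from JQ1. All groups come from a single line, and the labels do not say whether the 2 libraries of a group were separate cultures. P-values therefore measure the spread between these libraries, which may be technical.

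Proteins of the BCL2 family decide whether the outer membrane of mitochondria stays intact. BCL2, BCL-XL (from BCL2L1) and MCL1 bind and restrain the effectors BAX and BAK, which otherwise form pores that release cytochrome c and start the caspase cascade. The BH3-only proteins BIM (BCL2L11), PUMA (BBC3), NOXA (PMAIP1) and BID relay stress signals by occupying the protective proteins or by activating the effectors. NOXA binds mainly MCL1, and BID is cut by caspase-8 to link death receptors to mitochondria. Much of this control acts on proteins, which the libraries did not measure.

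Values are in scaled RPM, the authors' deposited signal in which the reads of each library were divided by a size factor of that library. The libraries held 15741695 to 37311326 reads in genes. YAP1 averaged 21.6 scaled RPM after YAP/TAZ siRNA and 182 with control siRNA, and BRD3 averaged 9.76 after BRD siRNA and 31.1 with control siRNA. BRD2 was lowered less, to a mean of 175 scaled RPM after BRD siRNA, against 252 with control siRNA, and averaged 937 with JQ1, against 249 with DMSO. YAP1 was also 1.81-fold lower after BRD siRNA than with control siRNA and 1.8-fold lower with JQ1 than with DMSO. Of 6 mesenchymal markers of such lines, 5 were rows of the table, with summed levels of 4656.2 to 5959.4 scaled RPM after YAP/TAZ siRNA, 5060.3 to 6843.9 after BRD siRNA, 6089.8 to 6149.6 with control siRNA, 10040.5 to 10044.3 with JQ1 and 7391.0 to 7494.5 with DMSO. Luminal epithelial markers, 5 of 8 in the table, summed to 603.7 to 759.9, 477.8 to 641.1, 496.0 to 525.1, 2129.0 to 2371.6 and 593.5 to 608.7 scaled RPM in the same groups. The JQ1 sum is mostly KRT8, at 2265 and 2025 scaled RPM, against 523 and 534 with DMSO, while EPCAM fell to 6.90 and 6.99 with JQ1, against 18.3 and 18.6 with DMSO. Of the 5 luminal markers, 2 rose and 1 fell with JQ1. Of the 5 mesenchymal markers, 1 rose and 3 fell after YAP/TAZ siRNA, 2 and 1 after BRD siRNA, and 2 and 2 with JQ1. In those comparisons 78.9%, 75.2% and 73.9% of all genes were called, and the sums do not speak for each marker. Markers of other cell types also differed between groups. The 3 leukocyte markers in the table of 6 listed (CD14, LYZ and CD68) summed to 122.0 to 180.0 scaled RPM after YAP/TAZ siRNA and 66.9 to 68.6 with control siRNA, and the 3 fibroblast and endothelial markers of 6 (COL1A1, PDGFRB and PECAM1) to 31.1 to 43.8 and 9.6 to 13.5. The same sums were 37.8 to 42.5 and 7.4 to 12.9 scaled RPM after BRD siRNA. With JQ1 they were 78.8 to 82.5 and 6.4 to 6.7 scaled RPM, against 69.3 to 70.6 and 3.7 to 4.9 with DMSO. The other listed markers of these types, among them PTPRC, CD3E, VWF and CDH5, were not rows of the table, and none of those in it was at 0 in any library. The part of these markers in the results below was not tested. In bulk RNA, fewer cells with a transcript and less transcript per cell cannot be told apart.

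Compared per length of exon, BCL2L1 and MCL1 made up most of the summed level of BCL2, BCL2L1 and MCL1. With control siRNA the levels were 141 ± 3.35 scaled RPM per kb for BCL2L1 and 99.8 ± 3.91 for MCL1, against 1.21 ± 0.0902 for BCL2 (SD, n = 2 each). The effectors BAK1 and BAX stood at 49.4 ± 2.37 and 41.8 ± 4.98 scaled RPM per kb. PMAIP1 stood at 48.5 ± 0.742 scaled RPM per kb, between the effectors and within the spread of BAK1, and the other BH3-only genes lay under it, at 9.72 ± 0.537 for BID, 2.82 ± 0.529 for BBC3 and 1.52 ± 0.112 for BCL2L11. These lengths are the joined exons of GENCODE v29, a different genome build from that of the counts, and do not separate the isoforms of a gene. BCL2L1, MCL1 and BCL2L11 are known to make isoforms with unlike activity, which the table sums.

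Start-site regions are shown for BCL2 and BBC3, the genes of the family with the largest changes, and for BAX, which held the most motif matches. They were searched for motifs of factors tied to the treatments, since YAP and TAZ reach DNA through TEAD factors, often beside AP-1. The regions are RefSeq promoters of build GRCh38.p14, from 250 bases before to 50 after the gene's start, and 8 of the 9 genes matched an entry. Both strands were searched for the TEAD motif GGAATG, the AP-1 motif TGANTCA and the E-box CACGTG, which are present in 14%, 7.71% and 7.26% of all 35116 promoter entries. The 300 bases of BBC3 (chr19:47232618-47232917, minus strand) held 1 match to each, those of BAX (chr19:48954625-48954924, plus strand) held 4 E-boxes, and those of BCL2 (chr18:63319720-63320019, minus strand) held none. Capitals mark the matches, and the sequences read 5′ to 3′ on the gene's strand:
BBC3: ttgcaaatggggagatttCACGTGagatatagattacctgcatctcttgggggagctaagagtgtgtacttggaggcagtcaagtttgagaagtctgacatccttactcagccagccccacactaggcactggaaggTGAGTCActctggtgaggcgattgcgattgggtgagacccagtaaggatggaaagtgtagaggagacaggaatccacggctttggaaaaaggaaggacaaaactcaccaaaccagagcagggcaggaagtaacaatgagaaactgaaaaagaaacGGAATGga
BAX: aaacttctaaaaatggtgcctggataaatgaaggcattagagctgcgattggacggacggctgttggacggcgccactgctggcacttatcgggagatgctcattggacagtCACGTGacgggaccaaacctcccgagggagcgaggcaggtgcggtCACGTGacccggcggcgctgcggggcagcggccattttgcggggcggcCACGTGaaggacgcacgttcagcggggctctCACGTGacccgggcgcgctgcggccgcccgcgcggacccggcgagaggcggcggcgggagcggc
BCL2: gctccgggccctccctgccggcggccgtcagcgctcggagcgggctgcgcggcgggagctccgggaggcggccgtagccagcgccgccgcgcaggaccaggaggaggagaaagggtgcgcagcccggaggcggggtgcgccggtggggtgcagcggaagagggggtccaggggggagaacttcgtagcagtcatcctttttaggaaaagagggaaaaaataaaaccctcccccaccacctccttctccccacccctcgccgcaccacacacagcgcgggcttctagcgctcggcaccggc
In BBC3 the TEAD, AP-1 and E-box matches began at 42, -113 and -232 bases from the start. Of the other genes, BID had 1 E-box, the same site seen in 2 overlapping entries of its 5. The entries of BCL2L1, BCL2L11, BAK1 and PMAIP1 held no match. A match describes letters only, and no match says nothing about binding elsewhere.

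All 3 perturbations lowered BCL2. By smaller amounts, BCL2L11 was called higher and BAX lower in all 3, though BAX was not called with YAP/TAZ siRNA mix 2 alone. The other genes of the family took different courses. After YAP/TAZ siRNA BCL2 and BCL2L1 fell and BBC3 rose with both siRNA mixes, and MCL1 fell with mix 2 only, while BRD siRNA lowered BCL2 and raised BCL2L1 and MCL1. JQ1 lowered BCL2 and BID and raised BCL2L1 and BBC3. With limma on log2(value + 1) across all 13674 tested genes and a Benjamini-Hochberg adjusted p of 0.05, 4 of the 9 genes rose and 4 fell after YAP/TAZ siRNA. Of all tested genes 78.9% were called in that comparison, 43.1% higher and 35.9% lower, so a call by itself sets no gene of the family apart. After BRD siRNA 4 rose and 4 fell, where 75.2% of all genes were called, 37.6% higher and 37.6% lower. With JQ1 against DMSO 3 rose and 4 fell, where 73.9% of all genes were called, 37.6% higher and 36.3% lower. The median log2 fold changes over the 9 genes were 0.08, -0.18 and -0.09 for YAP/TAZ siRNA, BRD siRNA and JQ1, and over all tested genes 0.07, -0.01 and 0.01. Sizes separated the genes further. Only 17.9%, 13.3% and 17.5% of all genes were called with a change of at least 1 on the log2(value + 1) scale in the 3 comparisons. In the family, BCL2 and BBC3 passed that size after YAP/TAZ siRNA, BCL2 after BRD siRNA, and BCL2, BBC3 and BID with JQ1.

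**Figure D1:**
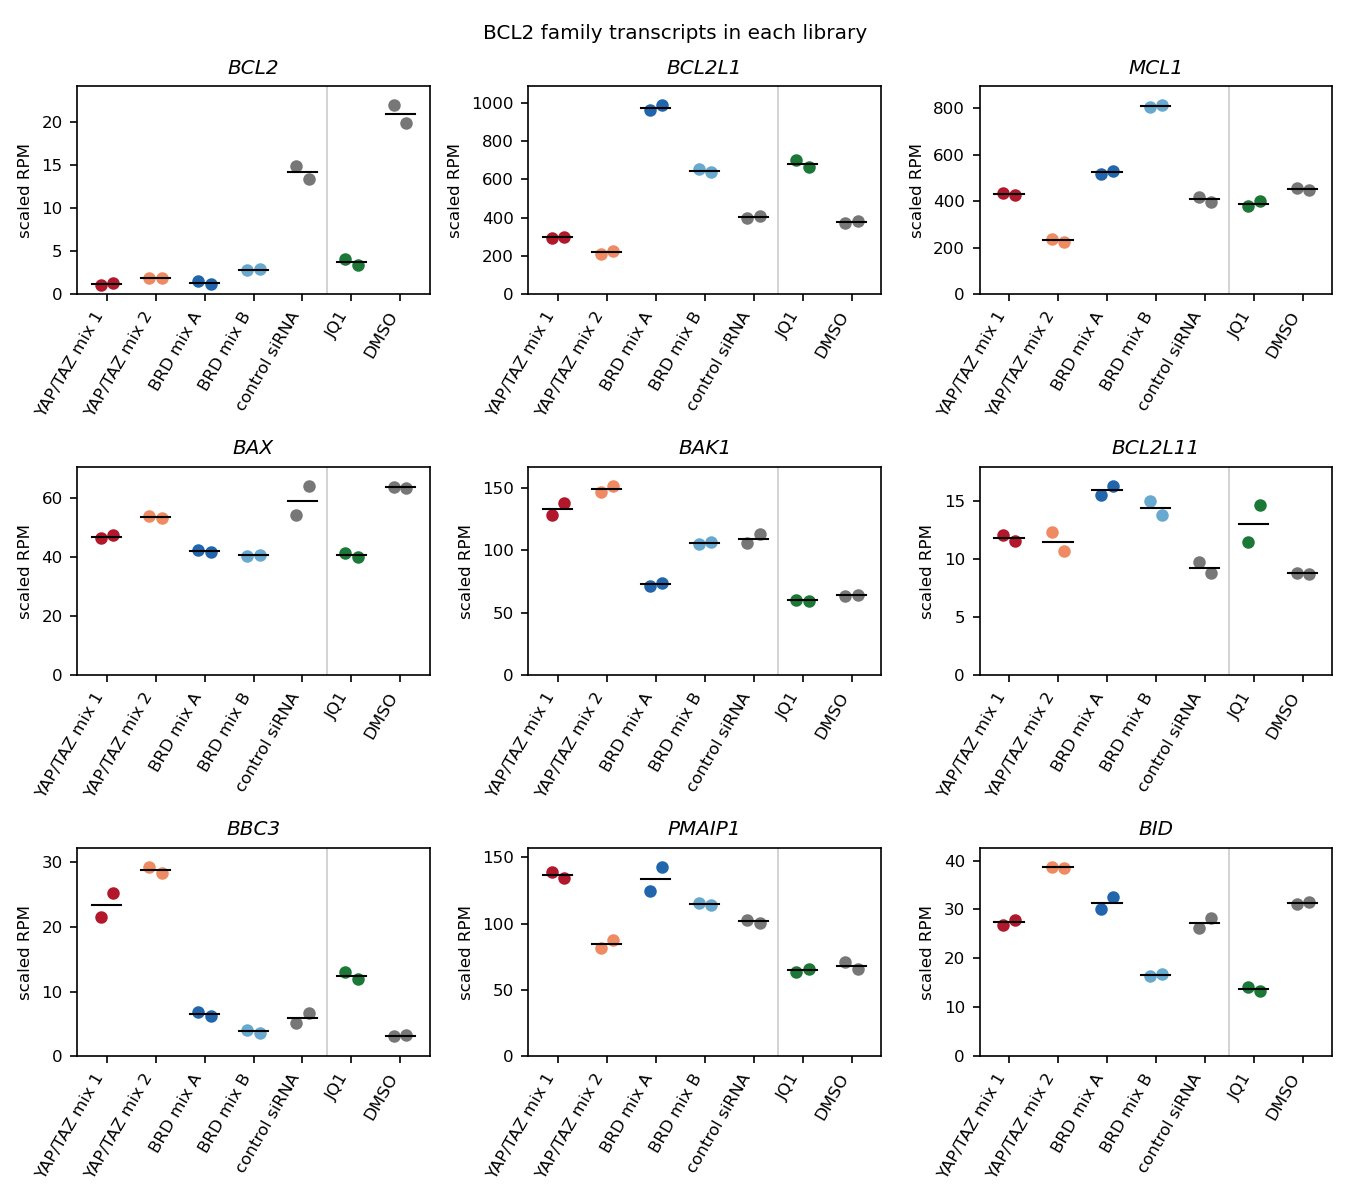
Level of each of the 9 genes (scaled RPM, linear axis from 0) in every library, by group, with a point per library and a bar at the mean of 2. BCL2 is low in every knockdown and JQ1 library, and BBC3 is high in the YAP/TAZ siRNA and JQ1 libraries.

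BCL2 itself, the founding member, measured 1.13, 1.28, 1.91 and 1.84 scaled RPM in the YAP/TAZ siRNA libraries (mix 1, then mix 2), 1.52, 1.20, 2.86 and 2.90 in the BRD siRNA libraries (mix A, then mix B), and 14.9 and 13.4 with control siRNA. It measured 4.05 and 3.37 scaled RPM with JQ1, against 22.0 and 19.9 with DMSO. Every treated library lay under every control library. For 64.7%, 64.4% and 87.7% of all 13734 genes the libraries were likewise apart, in either direction, in the 3 comparisons. Lack of overlap alone therefore sets no gene apart, here or for the genes below. The BCL2 means stood 9.21-fold lower after YAP/TAZ siRNA, 6.69-fold lower after BRD siRNA and 5.64-fold lower with JQ1. On the log2(value + 1) scale, which understates changes of low genes, the changes were -2.59 ± 0.10, -2.33 ± 0.10 and -2.22 ± 0.12 (limma, SE, adjusted p = 2.93e-15, 2.54e-14 and 5.76e-13). In all tested genes, 0.527%, 0.636% and 1.12% had a lower log2 fold change than BCL2. The treated values rest on few reads, 28 to 45 after YAP/TAZ siRNA and 32 to 84 after BRD siRNA, against 280 and 223 with control siRNA, and 101 and 96 with JQ1, against 678 and 719 with DMSO. Per kb of exon, BCL2 made up 0.0461% to 0.124% of the summed BCL2, BCL2L1 and MCL1 level after YAP/TAZ siRNA and 0.0214% to 0.0584% after BRD siRNA, against 0.473% and 0.524% with control siRNA. With JQ1 it made up 0.0869% and 0.102%, against 0.691% and 0.769% with DMSO.

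BCL2L1, the gene of BCL-XL, moved in opposite directions in the knockdowns. It measured 294, 299, 208 and 228 scaled RPM after YAP/TAZ siRNA, 959, 987, 651 and 639 after BRD siRNA, and 396 and 410 with control siRNA. The JQ1 libraries held 698 and 664 scaled RPM, against 372 and 380 with DMSO. The groups did not overlap in any of the 3 comparisons, as for 64.7%, 64.4% and 87.7% of all genes. BCL2L1 was 1.57-fold lower after YAP/TAZ siRNA (log2 fold change -0.66, limma, adjusted p = 6.80e-11), 2.01-fold higher after BRD siRNA (0.97, adjusted p = 1.75e-13) and 1.81-fold higher with JQ1 (0.85, adjusted p = 1.50e-11). Its share of the summed BCL2, BCL2L1 and MCL1 level per kb was 72.5% and 72.6% in BRD siRNA mix A and 53.6% and 52.8% in mix B. With control siRNA that share was 57.2% and 59.3%. It was 72.3% and 70.3% with JQ1, against 53.4% and 54.3% with DMSO. Other protective relatives are not part of that sum. Of its 2859 exon bases in GENCODE v29, 1224 (42.8%) are also exon of ABALON on the opposite strand. The libraries were stranded, but the sources used here do not give the strand setting of the counting, so the 2 genes may share reads.

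MCL1, a short-lived protector, measured 435, 427, 239 and 226 scaled RPM after YAP/TAZ siRNA, 518, 532, 805 and 814 after BRD siRNA, and 419 and 397 with control siRNA. JQ1 libraries reached 380 and 400 scaled RPM, against 456 and 450 with DMSO. All 4 BRD siRNA libraries were above control siRNA, and both JQ1 libraries under DMSO. After YAP/TAZ siRNA the mixes parted: mix 1 lay just above control siRNA and mix 2 well under it. Over both mixes MCL1 fell by 0.36 on the log2 scale (limma, adjusted p = 4.41e-07), but with mix 1 alone its change was 0.08 (adjusted p = 0.182) and with mix 2 alone -0.81. MCL1 was 1.64-fold higher after BRD siRNA (log2 fold change 0.68, adjusted p = 3.55e-11) and 1.16-fold lower with JQ1 (-0.21, adjusted p = 0.00123), a fall that was not called after quantile normalization (-0.10, adjusted p = 0.0862).

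**Figure D2:**
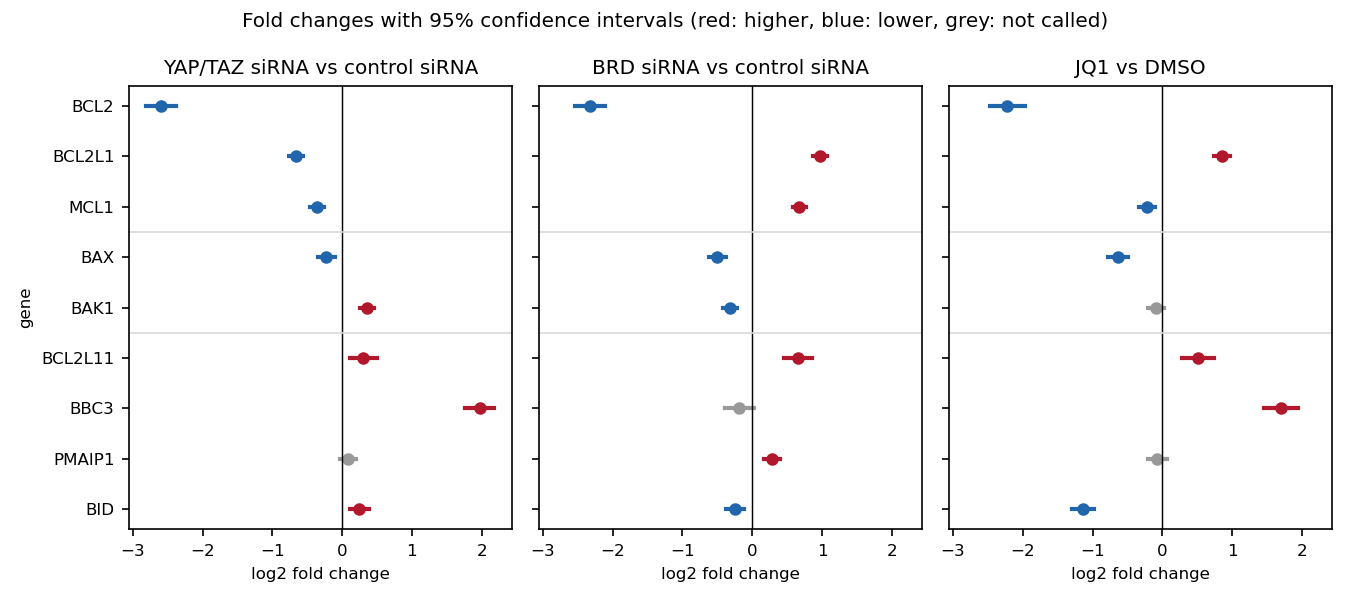
Log2 fold change of each of the 9 genes with its 95% interval (limma) for YAP/TAZ siRNA and BRD siRNA against control siRNA and for JQ1 against DMSO. BCL2 lies near -2.6, -2.3 and -2.2, BCL2L1 falls on opposite sides of 0 for the knockdowns, and BBC3 lies near 2.0, -0.2 and 1.7.

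BAX, the effector which sits in the cytosol until activated, measured 46.5, 47.3, 54.0 and 53.3 scaled RPM after YAP/TAZ siRNA, 42.4, 41.6, 40.4 and 40.8 after BRD siRNA, and 54.0 and 64.0 with control siRNA. With JQ1 it measured 41.4 and 40.0 scaled RPM, against 63.8 and 63.3 with DMSO. Its level was lower in every BRD siRNA and JQ1 library than in any of their control libraries, with log2 fold changes of -0.50 and -0.63 (limma, adjusted p = 1.86e-07 and 5.41e-08). After YAP/TAZ siRNA the change was -0.23 (adjusted p = 0.00186), and it was not called without control siRNA replicate 2 (-0.11, adjusted p = 0.137) or with mix 2 alone (-0.13, adjusted p = 0.0903).

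BAK1, the effector already inserted in mitochondria, measured 128, 137, 146 and 151 scaled RPM after YAP/TAZ siRNA, 71.3, 73.9, 105 and 107 after BRD siRNA, and 106 and 113 with control siRNA. Its level was 60.5 and 59.3 scaled RPM with JQ1, against 63.7 and 64.0 with DMSO. It rose after YAP/TAZ siRNA (log2 fold change 0.36, limma, adjusted p = 1.08e-06) in all 4 libraries. It fell after BRD siRNA by 0.32 (adjusted p = 6.93e-06), through mix A: mix B alone gave -0.05 (adjusted p = 0.455). The direction after BRD siRNA also rests on the control used, since BAK1 was 0.45 higher than in DMSO (adjusted p = 3.81e-08). Its JQ1 change of -0.09 was not called (adjusted p = 0.153).

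BBC3, the gene of PUMA, rose more than the other 8 genes after YAP/TAZ siRNA and with JQ1. It measured 21.5, 25.3, 29.3 and 28.4 scaled RPM after YAP/TAZ siRNA, 6.83, 6.21, 4.05 and 3.67 after BRD siRNA, and 5.12 and 6.68 with control siRNA. BBC3 levels were 13.0 and 12.0 scaled RPM with JQ1, against 3.08 and 3.23 with DMSO. All YAP/TAZ siRNA and JQ1 libraries lay above their controls, whereas the BRD siRNA libraries overlapped with control siRNA. The mean was 4.43-fold higher after YAP/TAZ siRNA (log2 fold change 1.98 ± 0.10, limma, SE, adjusted p = 1.55e-13) and 3.96-fold higher with JQ1 (1.70, adjusted p = 2.77e-11). After BRD siRNA the change was -0.18 (95% interval -0.39 to 0.03, adjusted p = 0.103), with 0.13 for mix A alone (adjusted p = 0.309) and -0.50 for mix B alone (adjusted p = 0.000654). Against DMSO the BRD siRNA libraries were 0.54 higher (adjusted p = 4.96e-05), and without control siRNA replicate 1 BBC3 was called lower after BRD siRNA (-0.35, adjusted p = 0.0113).

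BCL2L11, the gene of BIM, rose in all 3 comparisons. It measured 12.1, 11.6, 12.4 and 10.7 scaled RPM after YAP/TAZ siRNA, 15.6, 16.3, 15.0 and 13.8 after BRD siRNA, and 9.75 and 8.79 with control siRNA. With JQ1 it measured 11.5 and 14.7 scaled RPM, against 8.82 and 8.78 with DMSO. Every treated library was above both of its controls, with log2 fold changes of 0.31, 0.66 and 0.52 (limma, adjusted p = 0.00562, 2.23e-06 and 0.000229). The YAP/TAZ siRNA rise was not called without control siRNA replicate 2 (0.24, adjusted p = 0.0767). Of its 6093 exon bases, 727 (11.9%) are shared with MIR4435-2HG on the opposite strand.

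PMAIP1, the gene of NOXA, measured 139, 134, 82.0 and 88.0 scaled RPM after YAP/TAZ siRNA, 125, 143, 116 and 114 after BRD siRNA, and 103 and 101 with control siRNA. With JQ1 it measured 63.7 and 65.8 scaled RPM, against 70.8 and 65.6 with DMSO. The BRD siRNA libraries lay above control siRNA, with a log2 fold change of 0.28 (limma, adjusted p = 0.00013). The YAP/TAZ siRNA mixes lay on opposite sides of control siRNA, and their mean change of 0.08 was not called (95% interval -0.03 to 0.20, adjusted p = 0.18). It was called higher after upper-quartile scaling (0.15), after quantile normalization (0.18) and against DMSO (0.66). The JQ1 change of -0.07 was not called (adjusted p = 0.326).

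BID measured 26.9, 27.9, 38.7 and 38.6 scaled RPM after YAP/TAZ siRNA, 30.0, 32.6, 16.4 and 16.8 after BRD siRNA, and 26.2 and 28.4 with control siRNA. BID stood at 14.1 and 13.3 scaled RPM with JQ1, against 31.2 and 31.4 with DMSO. The JQ1 libraries lay 2.28-fold under DMSO (log2 fold change -1.13, limma, adjusted p = 1.65e-11). The knockdown means of 0.25 after YAP/TAZ siRNA (adjusted p = 0.00162) and -0.25 after BRD siRNA (adjusted p = 0.00176) were both called, but each joined 2 unlike mixes. BID after YAP/TAZ siRNA was not called with mix 1 alone (0.01) or against DMSO (0.06, adjusted p = 0.432).

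The 2 siRNA mixes of a knockdown did not move the family alike. Between YAP/TAZ siRNA mix 1 and mix 2, 8 of the 9 genes were called, where 65.7% of all genes were. MCL1 was 0.89 higher in mix 1 than in mix 2 on the log2 scale (limma, adjusted p = 8.26e-12) and PMAIP1 0.68 higher (adjusted p = 9.86e-09), with BCL2L1 0.44 higher, and BID and BCL2 differed by -0.48 and -0.38. The calls of BCL2, BAX, BAK1 and BBC3 did not hold with each library left out in turn. Their differences then ranged from -0.43 to -0.335, -0.201 to -0.178, -0.216 to -0.113 and -0.408 to -0.179. Against control siRNA, PMAIP1 rose with mix 1 (0.42, adjusted p = 5.57e-06) and fell with mix 2 (-0.26, adjusted p = 0.00113). Between BRD siRNA mix A and mix B, 7 of the 9 were called, where 50% of all genes were. BID was 0.88 higher in mix A than in mix B (adjusted p = 4.66e-09), BBC3 0.63 higher and BCL2L1 0.59 higher, while BCL2, MCL1 and BAK1 differed by -0.72, -0.62 and -0.53. Against control siRNA, BID rose with mix A (0.19, adjusted p = 0.0268) and fell with mix B (-0.68, adjusted p = 5.69e-08). Against control siRNA, 7, 8, 8 and 8 of the 9 genes were called with mix 1, mix 2, mix A and mix B, where 74.3%, 78.4%, 73.3% and 70.8% of all genes were. BCL2 fell with each of the 4 mixes, by 2.78, 2.40, 2.69 and 1.97 on the log2 scale for mix 1, mix 2, mix A and mix B, and BCL2L11 differed between the mixes of neither knockdown by a called amount.

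**Figure D3:**
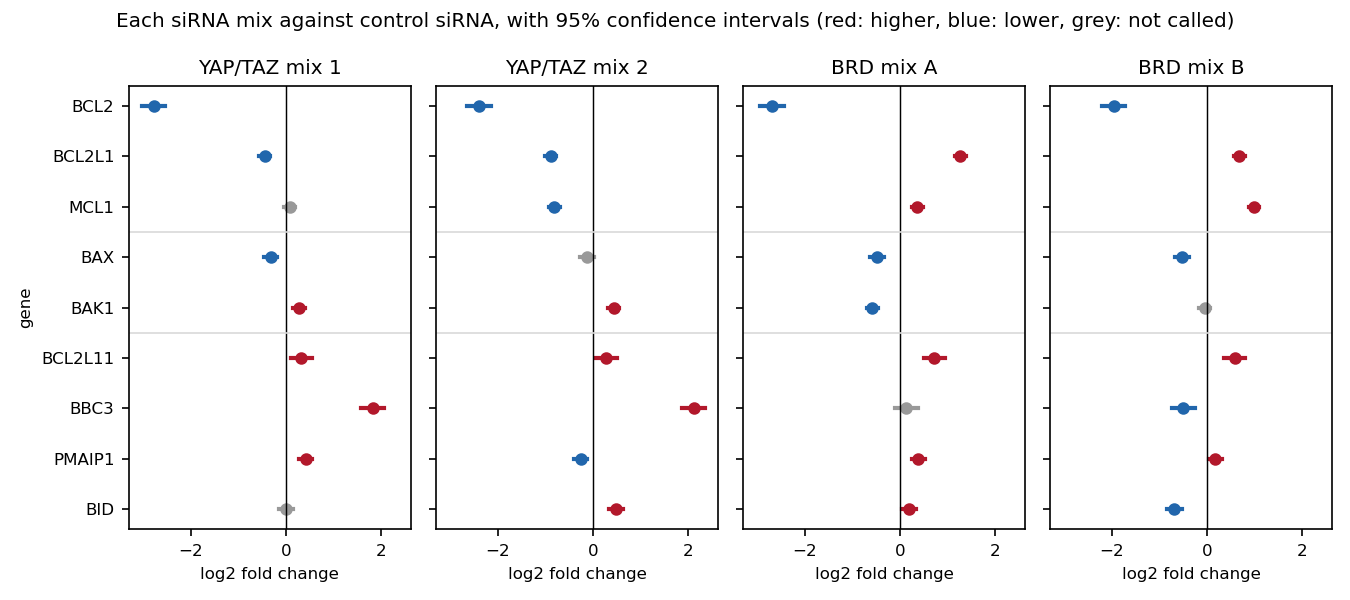
Log2 fold change of each gene with its 95% interval (limma) against control siRNA for each siRNA mix alone, YAP/TAZ siRNA mixes 1 and 2 and BRD siRNA mixes A and B. BCL2 is low with all 4 mixes, PMAIP1 lies on opposite sides of 0 for mixes 1 and 2, and BID for mixes A and B.

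Set directly against each other, YAP/TAZ siRNA and BRD siRNA differed in all 9 genes, where 81.3% of all genes were called. On the log2 scale BBC3 was 2.16 higher after YAP/TAZ siRNA than after BRD siRNA (limma), BCL2L1 differed by -1.64, MCL1 by -1.04 and BAK1 by 0.68. BCL2, low in both, differed by -0.26, with overlapping libraries. PMAIP1 and BID also overlapped, and their directions rest on which mixes are set together. PMAIP1 averaged 136.8 scaled RPM with mix 1 and 84.99 with mix 2, against 133.7 with mix A and 114.8 with mix B. BID averaged 27.4 scaled RPM with mix 1 and 38.62 with mix 2, against 31.29 with mix A and 16.59 with mix B. Upper-quartile scaling moved the median of all genes in this comparison by 0.101, and the PMAIP1 difference of -0.20 was then not called (-0.09, adjusted p = 0.0663).

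The JQ1 effect was compared with each knockdown effect by the difference of the log2 fold changes. Relative to the BRD siRNA effect, 5 genes differed, where 60.1% of all genes did: BBC3 by 1.88 (limma, adjusted p = 1.79e-09), MCL1 by -0.89 (adjusted p = 1.47e-09), BID by -0.89 (adjusted p = 1.67e-07), PMAIP1 by -0.35 (adjusted p = 0.00135) and BAK1 by 0.22 (adjusted p = 0.0141). BAK1 was not called without control siRNA replicate 2 (0.18, adjusted p = 0.0679) or without JQ1 replicate 1 (0.21, adjusted p = 0.0512). The BRD siRNA effect is the mean of 2 unlike mixes. BAK1 changed by -0.58 with mix A and -0.05 with mix B, against -0.09 with JQ1, so its difference rests on mix A. BID changed by 0.19 with mix A and -0.68 with mix B, against -1.13 with JQ1. For BCL2 the difference was 0.11 (95% interval -0.22 to 0.44), for BCL2L1 -0.12 (-0.27 to 0.04), for BAX -0.13 (-0.32 to 0.06) and for BCL2L11 -0.14 (-0.44 to 0.16), and none was called, which does not show that the 2 treatments act alike. BAX was called without control siRNA replicate 2 (-0.25, adjusted p = 0.0171). Relative to the YAP/TAZ siRNA effect, 5 genes differed, where 63.3% of all genes did: BCL2L1 by 1.52, BID by -1.38, BAK1 by -0.45, BAX by -0.40 and BCL2 by 0.37. The BCL2 difference (adjusted p = 0.0459) was 0.02 with a pseudocount of 4 (adjusted p = 0.843) and was lost when any of 7 libraries was left out. BBC3, raised by both, differed by -0.28 and was not called, but it was called without control siRNA replicate 2 (-0.44, adjusted p = 0.0181), with a pseudocount of 4 and after quantile normalization. Without control siRNA replicate 2 MCL1 was also called (0.19, adjusted p = 0.0416), and without JQ1 replicate 1 BCL2L11 was (0.37, adjusted p = 0.0381). MCL1 and PMAIP1 were not called with all libraries, where the YAP/TAZ siRNA effect is the mean of 2 unlike mixes. MCL1 changed by 0.08 with mix 1 and -0.81 with mix 2, against -0.215 with JQ1. PMAIP1 changed by 0.42 with mix 1 and -0.26 with mix 2, against -0.07 with JQ1. JQ1 and the knockdowns also differ in duration and in their controls.

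**Figure D4:**
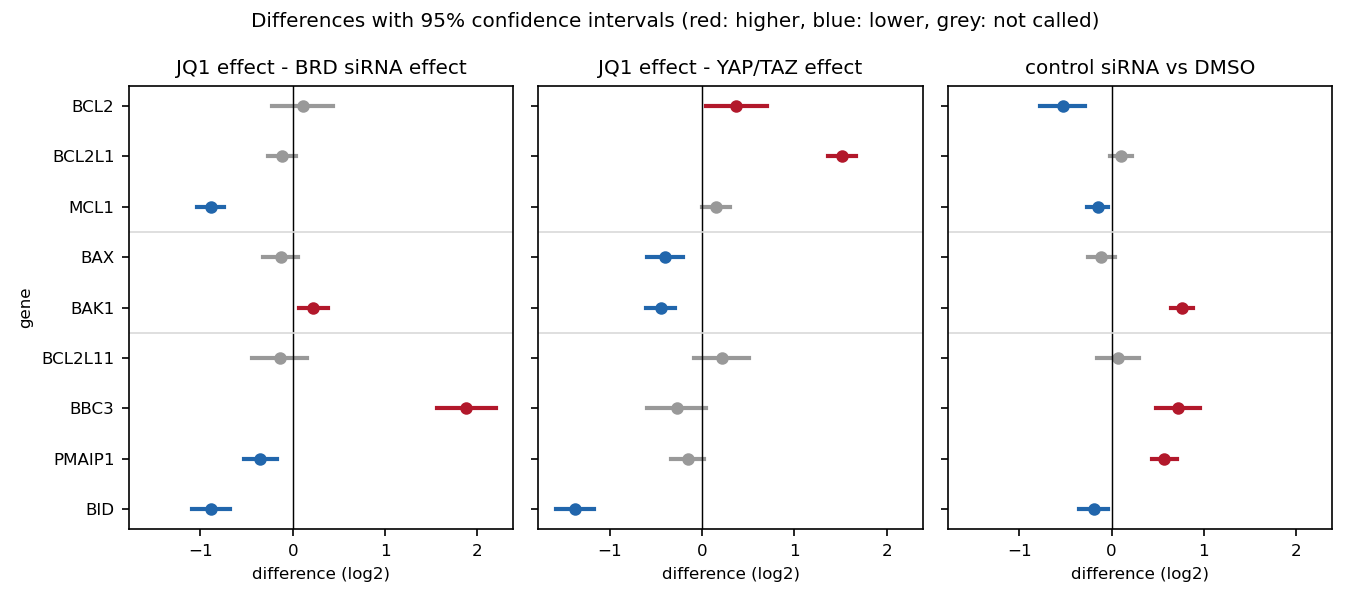
Difference between the JQ1 effect (against DMSO) and each knockdown effect (against control siRNA) on the log2 scale, with its 95% interval, for the 9 genes. The last panel shows control siRNA against DMSO. Relative to BRD siRNA, BBC3 stands at 1.88 and MCL1 and BID at -0.89, and BCL2 spans 0.

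The controls themselves differed. Between control siRNA and DMSO, 6 of the 9 genes were called, where 54.2% of all genes were. BAK1, BBC3 and PMAIP1 were 0.77, 0.72 and 0.57 higher with control siRNA than with DMSO on the log2 scale (limma), and BCL2, BID and MCL1 differed by -0.53, -0.19 and -0.15. Leaving out any of 3 libraries each ended the calls of MCL1 (control siRNA replicate 2 or either DMSO library) and BID (control siRNA replicate 1 or either DMSO library), and MCL1 turned to 0.06 after quantile normalization. BCL2L1, with a difference of 0.10 that was not called, was called after upper-quartile scaling (0.14, adjusted p = 0.0237) and quantile normalization (0.30, adjusted p = 0.000169). BCL2 measured 14.2 scaled RPM with control siRNA in the knockdown comparisons and 20.9 with DMSO in the JQ1 comparison.

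Beyond the 9 genes, the list of other BCL2 relatives had 8 of its 13 genes in the table. After YAP/TAZ siRNA 4 rose and 4 fell, after BRD siRNA 2 rose and 2 fell, and with JQ1 4 rose and 2 fell. Of all tested genes 78.9%, 75.2% and 73.9% were called in these 3 comparisons, so the counts of this and the other lists are set against a background in which most genes were called. BMF, a BH3-only gene linked to the cytoskeleton, rose by 2.88 on the log2 scale after YAP/TAZ siRNA (limma, adjusted p = 1.19e-16) and by 1.34 with JQ1 (adjusted p = 3.95e-10), and after BRD siRNA it fell with mix A (-0.46, adjusted p = 0.000673) and rose with mix B (0.54, adjusted p = 0.000153), a mean of 0.04. BMF was also 2.36 higher with control siRNA than with DMSO. BNIP3, a mitophagy receptor, rose by 1.37 after BRD siRNA and 1.19 with JQ1, and its close relative BNIP3L by 1.09 and 1.23. After YAP/TAZ siRNA both rose with mix 1, by 1.40 and 0.69, and were not called with mix 2, at 0.07 (adjusted p = 0.323) and 0.10 (adjusted p = 0.174). BOK, an effector relative, changed by -0.84 and -0.58 after the 2 knockdowns.

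Downstream of the mitochondria, the list of apoptosome and release genes (10, all tested) had 3 rises and 6 falls after YAP/TAZ siRNA, 5 and 4 after BRD siRNA, and 4 and 3 with JQ1, where 78.9%, 75.2% and 73.9% of all genes were called. CASP9, the caspase of the apoptosome, rose by 0.73 on the log2 scale after YAP/TAZ siRNA and by 0.60 with JQ1. After BRD siRNA it rose with mix A (0.77, adjusted p = 3.89e-06), and mix B gave -0.003 (adjusted p = 0.982). APAF1, its scaffold, changed by -0.90 after BRD siRNA (limma, adjusted p = 5.27e-11) and 0.19 with JQ1. With YAP/TAZ siRNA it fell for mix 1 (-0.26, adjusted p = 0.00326) and rose for mix 2 (0.59, adjusted p = 2.82e-07). CYCS, cytochrome c, fell by 0.64 after YAP/TAZ siRNA and by 0.57 with JQ1. VDAC1, a channel of the outer mitochondrial membrane, changed by -0.66 after YAP/TAZ siRNA, 0.20 after BRD siRNA and -0.31 with JQ1, and ENDOG, a mitochondrial nuclease, rose by 0.28, 0.90 and 0.89. Of 6 other caspases, 3 rose and 3 fell after YAP/TAZ siRNA, and 1 rose and 4 fell after BRD siRNA and likewise with JQ1. CASP10 and CASP2, both initiators, changed by -1.36 and -1.18 after BRD siRNA. CASP6 rose by 0.79 with JQ1 (limma, adjusted p = 1.62e-07).

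Of 6 inhibitors of apoptosis, 2 rose and 3 fell after YAP/TAZ siRNA, 1 rose and 3 fell after BRD siRNA, and 2 rose and 4 fell with JQ1. The shares of all genes called were 78.9%, 75.2% and 73.9%, here and for the 3 lists that follow. BIRC5 (survivin, which also serves chromosome segregation) fell by 1.14, 1.27 and 2.38 on the log2 scale, and BIRC3 (cIAP2) by 1.47, 1.89 and 0.75, the first with -0.42 for mix 1 and -2.52 for mix 2. XIAP, the direct caspase inhibitor, rose by 0.40 after BRD siRNA and changed by -0.29 with JQ1. Of the YAP/TAZ siRNA mixes, mix 1 raised it (0.92, adjusted p = 1.54e-10), and mix 2 gave -0.04 (adjusted p = 0.571). BIRC2 (cIAP1) changed by -0.34, -0.20 and -1.10 in the 3 comparisons, and was not called with BRD siRNA mix B alone (-0.13, adjusted p = 0.0669). The death receptor list had 11 of 12 genes in the table, with 7 rises and 0 falls after YAP/TAZ siRNA, 6 and 3 after BRD siRNA, and 4 and 6 with JQ1. The absence of falls after YAP/TAZ siRNA holds for mix 1 (9 rises and 0 falls) and the mean of the mixes, not for mix 2 (6 rises and 4 falls), and the BRD siRNA mixes gave 8 and 1 for mix A and 5 and 3 for mix B. TRADD, an adaptor of the TNF receptor, rose by 1.21, 1.15 and 1.65 in the 3 comparisons (limma, adjusted p = 6.48e-11, 1.87e-10 and 6.14e-12). The TNF receptor gene TNFRSF1A rose by 0.92, 0.28 and 0.33. The receptors FAS and TNFRSF10A and the adaptor FADD changed by -1.23, -1.65 and -0.73 with JQ1. Of 4 genes that control MCL1 turnover, 1 rose and 2 fell after YAP/TAZ siRNA, 2 rose and 1 fell after BRD siRNA, and 3 rose and 0 fell with JQ1. USP9X, a deubiquitinase that stabilises MCL1, rose by 0.37 after BRD siRNA and 0.90 with JQ1, and after YAP/TAZ siRNA with mix 1 (0.36) and not with mix 2 (-0.01, adjusted p = 0.864). HUWE1, a ligase that marks MCL1 for degradation, rose by 0.65 with JQ1. Of 6 transcription factors known to act on BH3-only genes, 2 rose and 2 fell after each knockdown, and 3 rose and 3 fell with JQ1. FOXO1 rose by 1.35 (0.55 with mix 1 and 2.15 with mix 2), 0.52 and 1.64, E2F1 fell by 3.03, 3.08 and 1.27, and TP73 by 1.74, 1.83 and 1.71. The median log2 fold changes of the death receptor list were 0.29, 0.23 and -0.24, beside 0.07, -0.01 and 0.01 for all tested genes, and those of the inhibitor list -0.10, -0.14 and -0.52.

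**Figure D5:**
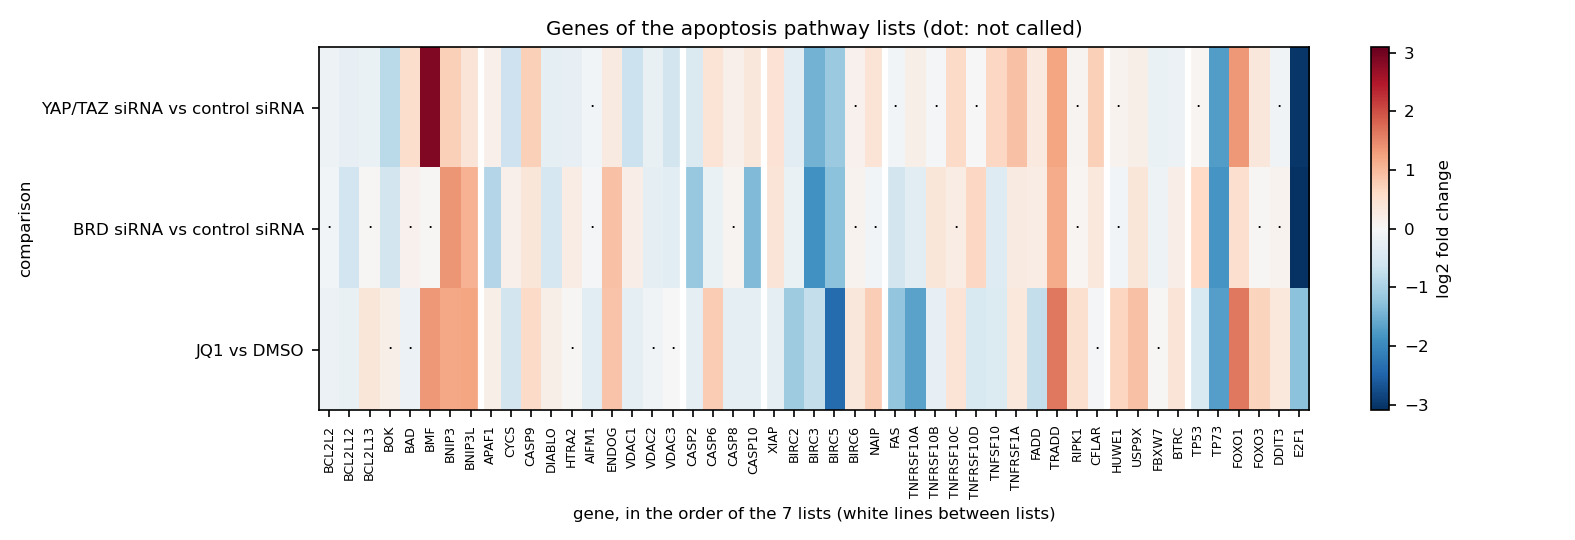
Log2 fold change (colour, blue lower and red higher) of other genes of the apoptosis lists (columns) in the 3 comparisons (rows), YAP/TAZ siRNA and BRD siRNA against control siRNA and JQ1 against DMSO, with a dot where limma made no call. BIRC5 and BIRC3 are blue and TRADD is red in all 3 rows, and BMF is red for YAP/TAZ siRNA (2.88) and JQ1 (1.34).

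Over the 7 group means on the log2(value + 1) scale, which share their libraries, the 11649 genes compared were ranked by Pearson's r with each member, as a description. Nearest to BCL2 were SNORD46, a small nucleolar RNA, TIPIN, a factor that stabilises replication forks, and C19orf48, with r of 0.9948, 0.9944 and 0.9944. Nearest to BCL2L1 were MED29, a Mediator subunit (0.9966), MAP2K3, a kinase of the p38 pathway (0.991), and MRPS14, a mitochondrial ribosomal protein (0.9853). Nearest to MCL1 were OSTM1, a lysosomal membrane protein (0.974), C2orf43 (0.9667), and SLC4A7, a bicarbonate transporter (0.9614).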

How the data were processed

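MDA-MB-231 total RNA was depleted of ribosomal RNA and made into stranded libraries, per the labels' protocols. The build hg19 and the tools TopHat2 2.0.5, HTSeq 0.6.0, CASAVA 1.8.4, R 3.0.0 and edgeR come from the submitters' processing notes; their roles, the annotation and the scaling are not stated. The authors deposited 1 value per gene and library, a signal named CPM whose columns sum to 903627 to 1098052, called scaled RPM here. Every value was a whole multiple of 1 read (100% at a tolerance of 0.01), so reads were recovered, with a median of 23539829 reads per library. The plan assumed CPM; the test is the same.

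Values were set to log2(value + 1) and kept at 1 or more in at least 2 libraries (13674 genes). One limma model (3.58.1, R 4.3.3) with a variance trend and 7 group terms gave log2 fold changes, SE and two-sided p-values with Benjamini-Hochberg adjustment over all genes, at 0.05. Every adjusted p in the text is from limma unless another tool is named. A knockdown is the mean of its 2 mixes. The test was run on simulated counts in which few genes changed. Most genes were called in the main comparisons here, so that run does not bear on these calls. edgeR 4.0.16 and DESeq2 1.42.0 on recovered reads were alternatives. No 2 libraries of a group agreed within sampling noise (chi-square per gene 3.44 to 10.6). The 9 genes and all lists were chosen with earlier results of these data known. All members are named; from each other list, names come from the called genes with the 2 largest moderated statistics per direction in a main comparison, and likeness of pattern is given for BCL2, BCL2L1 and MCL1. Some genes of the lists are not reported here.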

Additional observations from a re-analysis of the deposited data

Results flagged for a closer look

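PMAIP1 moved in opposite directions with the 2 siRNA mixes against YAP and TAZ: both mix 1 libraries lay above control siRNA (0.42 on the log2 scale, limma, adjusted p = 5.57e-06) and both mix 2 libraries under it (-0.26, adjusted p = 0.00113). The difference between mix 1 and mix 2 was 0.68 (adjusted p = 9.86e-09) and ranged from 0.63 to 0.73 when 1 library of the mixes was left out. That range bears on the difference between the mixes, and the opposite directions rest on control siRNA as the reference. PMAIP1 averaged 68.16 scaled RPM with DMSO, under both mix 2 (84.99) and mix 1 (136.8).

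BID did the same with the 2 siRNA mixes against the BRD genes. Relative to control siRNA it rose with mix A (0.19, limma, adjusted p = 0.0268) and fell with mix B (-0.68, adjusted p = 5.69e-08). Its rise with mix A also rests on that reference, since BID averaged 31.29 scaled RPM both with mix A and with DMSO. The difference between mix A and mix B was 0.875 (adjusted p = 4.66e-09) and ranged from 0.82 to 0.93 when 1 library of the mixes was left out.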

How the results depend on the processing

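Of 1530 values of single genes under the alternatives (pseudocounts of 0.25 and 4, no filter or a filter at 5, 3 other scalings, no variance trend, only the groups compared, edgeR, DESeq2, each library left out, each mix alone, DMSO as the control), 1453 kept their direction and their side of the threshold, 46 lost the call, 16 gained it and 15 changed sign. BCL2 kept its call and direction against control siRNA and DMSO throughout. With 1 mix alone, MCL1 turned to 0.081 (YAP/TAZ mix 1), PMAIP1 to -0.258 (YAP/TAZ mix 2), BBC3 to 0.132 and BID to 0.191 (both BRD mix A). Against DMSO, BRD siRNA gave 0.449 for BAK1 and 0.539 for BBC3. Quantile normalization turned MCL1 to 0.055 and BCL2L11 to -0.013 between control siRNA and DMSO, and the JQ1 minus BRD siRNA differences of BCL2 to -0.043 and of BCL2L1 to 0.007; a pseudocount of 4 turned the BCL2 difference to -0.111. With 1 library left out, the control siRNA minus DMSO differences ranged from -0.23 to 0.01 for BAX and from -0.002 to 0.134 for BCL2L11, the mix 1 minus mix 2 difference of BCL2L11 from -0.055 to 0.137, and its JQ1 minus BRD siRNA difference from -0.303 to 0.022. Between the YAP/TAZ siRNA mixes, the calls of BCL2, BAX, BAK1 and BBC3 did not hold with each library left out in turn. The causes were not tested.

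With the replicate block, the genes called stayed 8 of 9 for YAP/TAZ siRNA, 8 for BRD siRNA and 7 for JQ1. In the fit without the block, 78.9%, 75.2% and 73.9% of all genes were called, so these counts do not set the family apart. The share of all genes called with the block is not given here. Over 21 pairs of groups the correlation of deviations of same-numbered libraries ran from -0.373 to 0.254, with 7 over 0.1. Such correlations, of both signs, cannot settle whether any same-numbered libraries were handled together. The 2 libraries of each group and the 28 to 84 reads of BCL2 after knockdown limit the precision of single values.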
